A study of Mus musculus with 18 samples.

Results

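The genes described here are Spp1, Ccl2 and Il1b, 3 of the 10897 genes in the expression table, measured in colorectal tissue of male C57BL/6J mice. They were picked by name because their values were higher in the group exposed to cigarette smoke, so their difference between that group and the other groups is given as a description, without a test. The 18 RNA-seq libraries fell into 3 groups of 6, and all carried the same batch label. The mice were 10 weeks old, and azoxymethane (AOM) is a carcinogen that causes colon tumours in mice. Control libraries came from wild-type, specific pathogen-free mice whose sample labels name an AOM-induced cancer. The GF-AOM libraries are labelled as germ-free with AOM, and those of GF-AOMS add exposure to cigarette smoke to both. The treatment protocol instead calls the Control mice normal, and the growth protocol places all mice in a specific pathogen-free facility. GF-AOMS differed from GF-AOM by smoke under both readings, whereas AOM and germ status cannot be told apart in the contrasts with Control. Tumour and surrounding tissue were not distinguished in the labels. The labels do not say that each library is a separate mouse, so p-values measure the spread between these libraries.

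Spp1 encodes osteopontin, a secreted phosphoprotein of the matrix that binds integrins and CD44 and acts as a cytokine for macrophages and T cells. Ccl2 encodes monocyte chemoattractant protein, which draws monocytes that carry the receptor CCR2 into tissue. Il1b encodes interleukin 1 beta, which is made as an inactive precursor, cut by caspase 1 in the inflammasome, and signals through IL1R1, MyD88 and NF-kappaB. In the gut, osteopontin and both cytokines are known products of activated macrophages, and stromal and epithelial cells can make osteopontin and CCL2.

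Spp1 (ENSMUSG00000029304) lies on chromosome 5 from 104435118 to 104441050 on the plus strand. Ccl2 (ENSMUSG00000035385) lies on chromosome 11 from 82035571 to 82037453 on the plus strand, at one end of a cluster of CC chemokine genes. Il1b (ENSMUSG00000027398) lies on chromosome 2 from 129364570 to 129371139 on the minus strand. These coordinates match GENCODE M21 on GRCm38, and the values count reads over whole genes with 7, 2 and 3 annotated transcripts, in that order. Each gene overlaps 1 other annotated gene that is not in the expression table. These are Gm42793 on the same strand as Spp1, Gm17268 antisense to Ccl2, and Il1bos antisense to Il1b. The libraries were strand-specific, but whether the counting used strand is not given in the sources used here, so reads of these partners may be part of the values.

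The stretch of 250 bases upstream of the start, taken from RefSeq on GRCm38.p6, was matched for Spp1 and Il1b, 2 of the 3 genes. They are shown as the regulatory sequence next to the start of the genes whose levels are compared below, and capitals mark the letters that matched a searched motif. The Spp1 window is chr5:104434861-104435110 on the plus strand and the Il1b window is chr2:129371140-129371389 on the minus strand, both written 5′ to 3′ along the gene.
Spp1: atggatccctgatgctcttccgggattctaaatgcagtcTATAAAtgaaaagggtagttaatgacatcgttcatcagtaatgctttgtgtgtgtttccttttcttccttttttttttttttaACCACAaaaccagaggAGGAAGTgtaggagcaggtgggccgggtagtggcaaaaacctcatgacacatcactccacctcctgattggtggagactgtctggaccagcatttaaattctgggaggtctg
Il1b: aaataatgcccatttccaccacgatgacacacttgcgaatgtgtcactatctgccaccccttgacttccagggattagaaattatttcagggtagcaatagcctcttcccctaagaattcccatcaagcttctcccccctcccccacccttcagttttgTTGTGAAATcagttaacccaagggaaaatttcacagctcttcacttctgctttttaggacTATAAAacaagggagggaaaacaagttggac

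The motifs were searched on both strands, and the set was chosen with these sequences known. TATAAA began 31 bases upstream of the Il1b start, and the same letters began 211 bases upstream of the Spp1 start. It was present in 12.4% of 32851 mouse promoters of the same length. In the Spp1 window, the RUNX motif TGTGGT lay on the opposite strand, with its first base 128 bases upstream, and the PU.1 motif AGGAAGT began 112 bases upstream. These were present in 14.0% and 7.69% of promoters. In the Il1b window, the C/EBP motif TTNNGNAAT began 91 bases upstream, and 10.2% of promoters held it. The letters searched for NF-kappaB (in 17.6% of promoters), AP-1 (TGANTCA, 6.75%), the E-box (CACGTG, 6.02%), the xenobiotic response core (GCGTG, 28.2%) and the antioxidant response (TGACNNNGC, 10.2%) were not in either window.

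Libraries held 48953539 to 79233656 counts. Values are given as CPM, the count relative to the library's total after scaling by the trimmed mean of M values (TMM), and as the deposited FPKM, which also divides by gene length. Replicate 2 of GF-AOMS stood apart. Its TMM factor of 0.721 was the lowest of the 18, and its summed markers of macrophages, neutrophils, mast cells, T and NK cells and smooth muscle were the highest of the 18, so values without it are given beside the results that rest on it. Colon epithelium markers were well expressed in every library, with all 13 measured and sums between 9369 and 17822 CPM. In 4 of the 6 Control libraries, replicates 3 to 6, the distal colon markers Hoxa13 and Hoxb13 were lower than in the other 14 libraries. Among those 14, Hoxb13 was lowest in GF-AOMS replicate 2, at 19.8 CPM, beside 157.8 to 292.0 in the other GF-AOMS libraries. GF-AOM replicate 6 had the lowest Hoxb13 of its group, at 43.3 CPM, beside 52.9 to 190.1 in the others.

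Spp1 was the clearest of the 3 genes. In GF-AOMS its CPM was 16.2, 46.4, 24.98, 32.1, 28.2 and 22.3 in replicates 1 to 6. In GF-AOM it was 10.4, 6.73, 14.9, 6.62, 6.99 and 11.6 CPM, and in Control 12.9, 5.55, 6.80, 11.8, 13.5 and 6.08 CPM. Each GF-AOMS library lay above each library of both other groups on this scale. The mean was 28.4 ± 10.3 CPM (SD, n = 6) in GF-AOMS, 9.53 ± 3.36 (SD, n = 6) in GF-AOM and 9.45 ± 3.68 (SD, n = 6) in Control. The log2 difference was 1.57 (SE 0.29) from GF-AOM, or 2.97-fold, and 1.59 (SE 0.29) from Control, or 3.00-fold. Only 6 genes of the table, 0.0551%, had each GF-AOMS library above each GF-AOM library, and 28 genes, 0.257%, did so against Control. Against both groups at once there were 2 genes, 0.0184%, Spp1 and the homeobox gene Rhox5, and nothing is read from that count because Spp1 was chosen on it. On the FPKM scale, GF-AOMS replicate 1, at 7.59, fell inside the Control range, whose highest library was replicate 5 at 8.25, so the separation from Control depended on the scaling of 1 library. In bulk tissue, more cells of a type and more RNA per cell cannot be told apart.

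Ccl2 was lowest in GF-AOM and highest in GF-AOMS. Its CPM in GF-AOMS was 4.49, 13.9, 4.37, 7.97, 11.1 and 5.49 in replicates 1 to 6. In GF-AOM it was 1.92, 2.58, 2.86, 0.854, 1.496 and 5.52 CPM, and in Control 3.75, 1.87, 2.54, 3.46, 4.89 and 4.59 CPM. Of the GF-AOM libraries, 5 lay below all 6 GF-AOMS libraries, and replicate 6 lay among them. The mean was 7.89 ± 3.91 CPM (SD, n = 6) in GF-AOMS, 2.54 ± 1.63 (SD, n = 6) in GF-AOM and 3.52 ± 1.16 (SD, n = 6) in Control. The log2 difference was 1.64 (SE 0.40) from GF-AOM, or 3.11-fold, and 1.16 (SE 0.40) from Control, or 2.24-fold. All 6 GF-AOMS libraries were above the mean of each other group, and 4 of them were above every Control library. Without GF-AOM replicate 6 the first difference was 2.03, or 4.07-fold. Counts of Ccl2 ran from 48 to 671, and the lowest, in GF-AOM replicate 4, has an exact Poisson 95% interval of 35.4 to 63.6 counts, which covers counting error only.

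Il1b varied most, and its difference from GF-AOM rested on 1 library. Its CPM in GF-AOMS was 3.28, 23.3, 3.33, 7.92, 10.5 and 4.04 in replicates 1 to 6. In GF-AOM it was 1.75, 6.27, 3.65, 2.83, 5.87 and 12.3 CPM, and in Control 3.77, 4.16, 2.65, 2.38, 4.44 and 3.24 CPM. GF-AOMS replicates 1, 3 and 6 lay among the Control libraries, and replicates 2, 4 and 5 lay above all of them. The mean was 8.73 ± 7.72 CPM (SD, n = 6) in GF-AOMS, 5.44 ± 3.78 (SD, n = 6) in GF-AOM and 3.44 ± 0.827 (SD, n = 6) in Control. The log2 difference from GF-AOM was 0.68 (SE 0.49), or 1.60-fold, and 1 of 6 GF-AOMS libraries exceeded every GF-AOM library. Without GF-AOMS replicate 2 that difference was 0.09, or 1.06-fold, and without GF-AOM replicate 6 it was 1.10, or 2.15-fold. The log2 difference from Control was 1.34 (SE 0.49), or 2.53-fold, and 0.76, or 1.69-fold, without GF-AOMS replicate 2. For the same contrast limma gave 0.67 on log2(FPKM + 1) and 0.88 on log2(FPKM + 0.1).

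**Figure D1:**
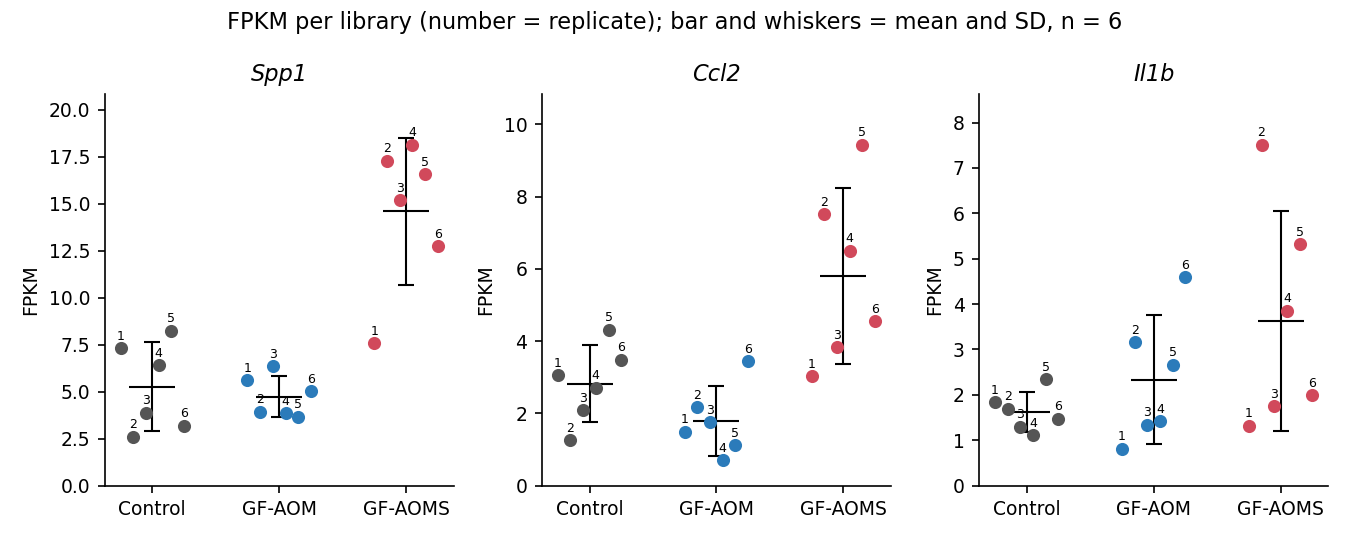
FPKM of Spp1, Ccl2 and Il1b (vertical axes, each with its own scale) in the 6 numbered libraries of each group, with the mean and SD. For Spp1, 5 GF-AOMS libraries lie above both other groups and replicate 1, at 7.59, lies at the top of the Control range. For Il1b, GF-AOMS replicates 2 and 5 lie above all other groups' libraries and replicates 1, 3 and 6 among them. Replicate 4, at 3.86, lies below GF-AOM replicate 6, at 4.60, and above the other libraries of both groups.

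Without smoke, none of the 3 genes differed detectably between GF-AOM and Control, the one contrast that the choice of genes did not use. The log2 difference GF-AOM minus Control was 0.01 (SE 0.29) for Spp1, with an adjusted p of 0.984 in edgeR's quasi-likelihood test. For Ccl2 it was −0.47 (SE 0.39), with an adjusted p of 0.504 in the same edgeR test, and for Il1b 0.66 (SE 0.49), with an adjusted p of 0.456 in edgeR. The sign for Spp1 turned under other scalings, to −0.14 with library totals alone. In this contrast edgeR called 1 of 10897 genes, 0.00918%, at an adjusted p under 0.05. The order of the group means was therefore Control and GF-AOM side by side below GF-AOMS for Spp1, GF-AOM then Control then GF-AOMS for Ccl2, and Control then GF-AOM then GF-AOMS for Il1b. The 2 lower groups did not differ beyond their spread for any of the 3 genes. For Il1b the libraries of GF-AOM and GF-AOMS overlapped, and that contrast was not tested.

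Compared per length, Spp1 was the most abundant of the 3 in every group. Its FPKM level was 5.27 ± 2.35 (SD, n = 6) in Control, 4.74 ± 1.10 (SD, n = 6) in GF-AOM and 14.6 ± 3.92 (SD, n = 6) in GF-AOMS. The Ccl2 level was 2.82 ± 1.07, 1.79 ± 0.959 and 5.81 ± 2.44 FPKM in the same order (SD, n = 6 each). The Il1b level was 1.63 ± 0.438, 2.33 ± 1.42 and 3.63 ± 2.43 FPKM in that order (SD, n = 6 each). Ccl2 thus had the higher mean of these last 2 genes in Control and GF-AOMS, and Il1b in GF-AOM.

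The log2 differences of all 3 genes were positive against both groups in each of the 18 fits that left out 1 library. From GF-AOM they ran from 1.38 to 1.75 for Spp1, 1.39 to 2.03 for Ccl2 and 0.09 to 1.10 for Il1b. From Control they ran from 1.39 to 1.72, 0.93 to 1.29 and 0.76 to 1.51 in that order. The lowest value of each came without GF-AOMS replicate 2. With Control limited to replicates 1 and 2, which had distal Hox levels like those of the other groups, the differences from Control were 1.62 (SE 0.45), 1.49 (SE 0.65) and 1.14 (SE 0.82) for Spp1, Ccl2 and Il1b.

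**Figure D2:**
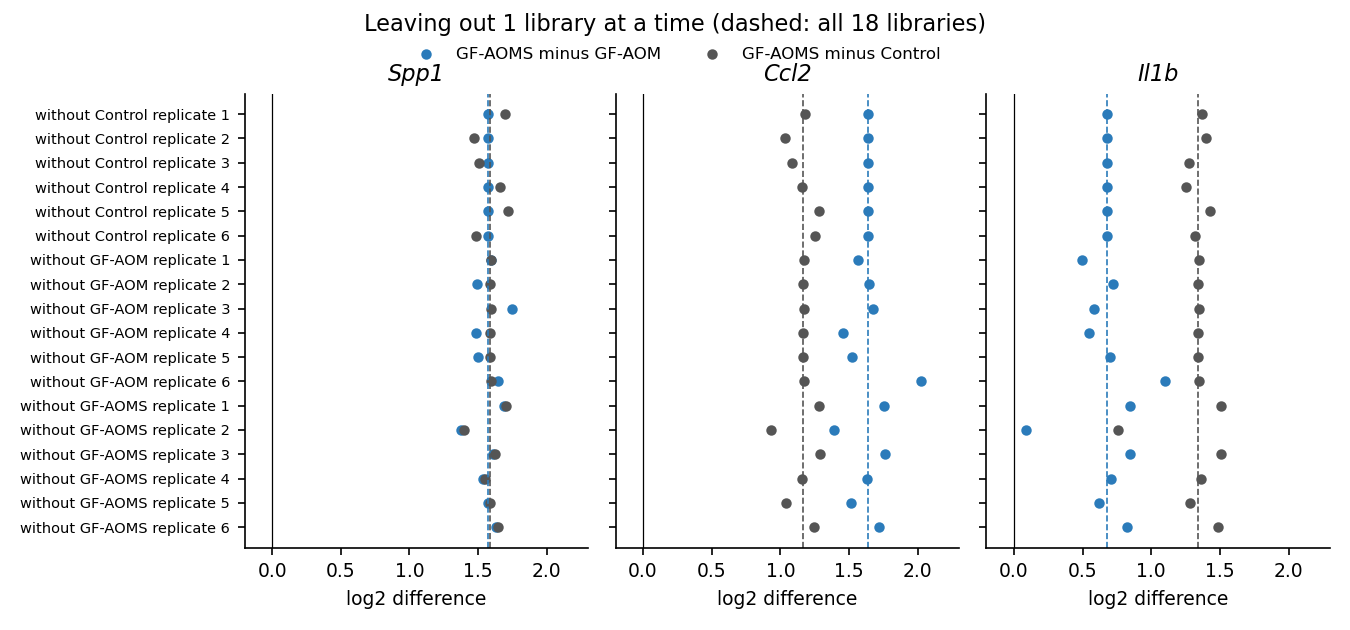
Log2 difference (horizontal axes) of Spp1, Ccl2 and Il1b between GF-AOMS and each other group when the library named at left is omitted; dashed lines are the fits to all 18 libraries. The Spp1 points stay between 1.38 and 1.75, and the Il1b difference from GF-AOM falls to 0.09 without GF-AOMS replicate 2.

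The spread between libraries of a group was wide for all 3 genes. The pooled within-group SD of log2 CPM was 0.53 for Spp1, 0.72 for Ccl2 and 0.88 for Il1b, beside a median of 0.31 over all genes. Among the 500 genes nearest in level, these SDs lay at percentiles 82.4, 73.0 and 86.4. By group, the log2 SD of Il1b was 0.36 in Control, 0.98 in GF-AOM and 1.12 in GF-AOMS. The log2 SD of Ccl2 was 0.52, 0.90 and 0.70 in the same order, and that of Spp1 was 0.59, 0.49 and 0.51. Il1b was therefore nearly even across the Control libraries and uneven in GF-AOM and GF-AOMS, whereas Spp1 varied by a like amount in each group. The inequality of the SDs was not tested.

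Taken over all 18 libraries, deviations of the 3 genes from their group means had positive correlations, short of the adjusted threshold. Deviations from the group mean of log2 CPM, which do not depend on the difference between groups, were compared over the 18 libraries. Pearson's r was 0.662 for Spp1 with Ccl2, with a permutation p of 0.00364 and an adjusted p of 0.064 over 39 relations. Spearman's rho was 0.626, with an adjusted permutation p of 0.114, and r was 0.596 without the 2 libraries farthest from the median. For Ccl2 with Il1b r was 0.704, with a permutation p of 0.00492 and an adjusted p of 0.064. Its rho was 0.674, with an adjusted permutation p of 0.114, and r was 0.626 without the 2 farthest libraries. For Spp1 with Il1b r was 0.376 and rho 0.325, with a permutation p of 0.133 and an adjusted p of 0.423 for r, and r was 0.262 without the 2 farthest. None of these 3 relations passed the adjusted threshold.

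Relations inside single groups were outside the planned tests, and the genes were chosen for their values in GF-AOMS, so nothing is concluded from these p-values. Over the 6 GF-AOMS libraries r was 0.981 for Ccl2 with Il1b. Its exact permutation p was 0.00278, with an adjusted p of 0.025 over 9 relations, and rho was 0.943 with an adjusted exact p of 0.15. Without replicates 2 and 5, the libraries farthest from the median of Ccl2, r was 0.988. Spp1 with Il1b gave an r of 0.898 in GF-AOMS, with an exact permutation p of 0.0125 and an adjusted p of 0.0563. Spp1 with Ccl2 gave 0.844, with an exact permutation p of 0.0264 and an adjusted p of 0.0792. Without the 2 farthest libraries these were 0.750 and 0.641. In GF-AOM the r was 0.645 for Ccl2 with Il1b, 0.639 for Spp1 with Ccl2 and −0.00254 for Spp1 with Il1b, and 0.0192, 0.299 and −0.758 without the 2 farthest libraries. In Control the same relations gave 0.0835, 0.587 and 0.0766, and 0.718, 0.0210 and 0.105 without the 2 farthest. None of the 6 relations in these groups passed the adjusted exact test. On log2 FPKM, r for Ccl2 with Il1b, Spp1 with Ccl2 and Spp1 with Il1b was 0.925, 0.777 and 0.736 in GF-AOMS, 0.648, 0.386 and −0.385 in GF-AOM, and 0.384, 0.689 and 0.370 in Control. Whether the relations differ between groups was not tested.

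**Figure D3:**
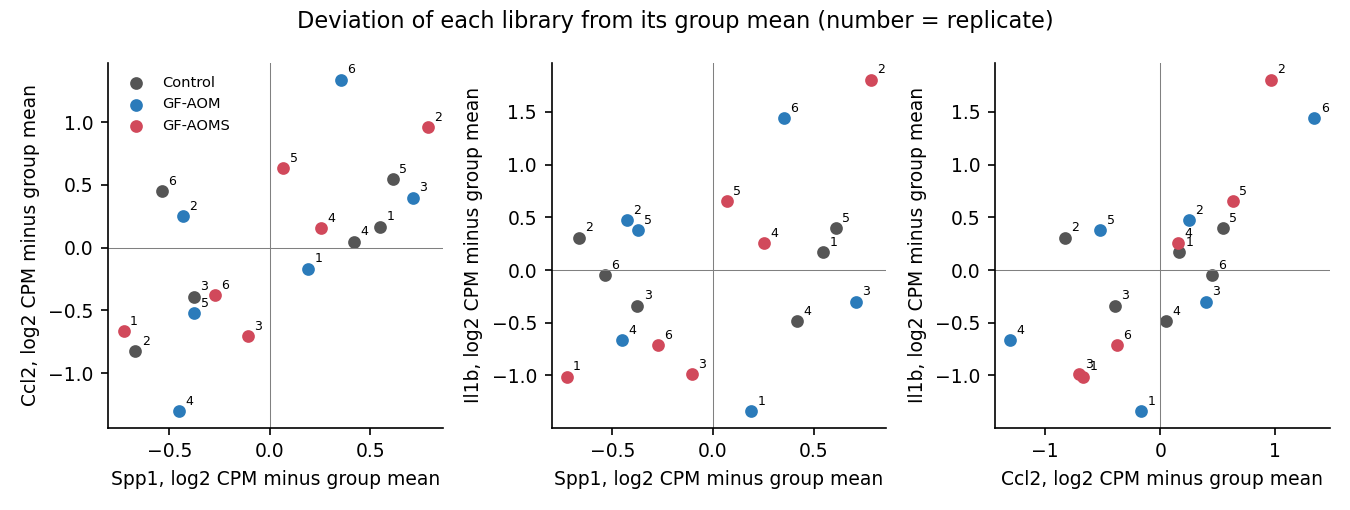
Deviation of each numbered library from its group mean, in log2 CPM, for the 3 pairs of genes; colours mark the groups. In the panel of Ccl2 and Il1b the 6 GF-AOMS libraries lie close to a line, with replicate 2 at the upper end and replicates 1 and 3 at the lower end.

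Markers of the cells known to make these proteins were measured in the same libraries. Of 22 macrophage and monocyte markers 18 were in the table. From GF-AOM to GF-AOMS 16 of the 18 had a negative log2 difference, with a median of −0.32, and none passed edgeR's adjusted threshold, as for all genes in this contrast (0.0%). At an unadjusted p under 0.05 in edgeR there were 2 of the 18, beside 1.09% of all genes. The summed macrophage level ran from 767.1 to 2091 CPM in Control, 1127 to 2732 in GF-AOM and 1117 to 2899 in GF-AOMS, where replicate 2 was highest and the next library had 1530. Lyz2 made up 44.8% of the sum, and no measured marker was at 0 in all libraries.

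Of 12 neutrophil markers only Retnlg and Mmp9 were in the table, and their sum ran from 8.13 to 24.5 CPM in Control, 9.50 to 29.6 in GF-AOM and 13.3 to 81.4 in GF-AOMS, where replicate 2 was again highest and the next had 31.0. Both genes had positive log2 differences from GF-AOM, with a median of 0.64. Neither passed edgeR's adjusted threshold, as for all genes in this contrast (0.0%). Of 10 mast cell markers 3 were measured, Kit, Mcpt1 and Mcpt2. All 3 had positive log2 differences from GF-AOM, with a median of 1.82, and none passed in edgeR. Their sum had a mean of 173.8 ± 115.3 CPM (SD, n = 6) in GF-AOMS, 84.8 ± 65.1 (SD, n = 6) in GF-AOM and 82.7 ± 23.3 (SD, n = 6) in Control. It was 69.0 to 373.4 CPM in GF-AOMS, 26.3 to 211.3 in GF-AOM and 55.7 to 115.5 in Control. Kit made up 51.5% of the sum over all 18 libraries, and its ranges were alike, at 23.2 to 71.6 CPM in GF-AOMS and 25.3 to 77.7 in GF-AOM. Mcpt1 ran from 7.99 to 219.5 CPM in GF-AOMS and 0.695 to 103.9 in GF-AOM. Mcpt2 ran from 4.21 to 130.7 CPM in GF-AOMS and 0.316 to 41.3 in GF-AOM. In GF-AOMS replicate 2, which had the highest sum, Kit was the lowest of the 18 libraries. There Mcpt1 was at 219.5 CPM and Mcpt2 at 130.7. The T and NK cell sum, from 9 of 12 markers, reached 195.0 CPM in GF-AOMS replicate 2, and the next library of that group had 87.0. Over the 18 within-group deviations, Il1b followed the T and NK cell sum with an r of 0.721, a permutation p of 0.00125 and an adjusted p of 0.0488, the only one of the 39 relations to pass. Its Spearman relation had an adjusted permutation p of 0.147, and r was 0.538 without the 2 farthest libraries. For Il1b, r was 0.639 with the macrophage sum, 0.638 with the neutrophil sum and 0.558 with Itgax, a dendritic cell marker, with adjusted permutation p of 0.0686, 0.0853 and 0.0853. With the macrophage sum r was 0.276 for Spp1 and 0.376 for Ccl2, with adjusted permutation p of 0.646 and 0.423. Without the 2 farthest libraries these r were 0.035 and 0.163. In Control, GF-AOM and GF-AOMS they were −0.430, 0.660 and 0.718 for Spp1 and −0.606, 0.688 and 0.754 for Ccl2. Whether they differ between groups was not tested. For Spp1 the highest marker r was 0.439, with colon epithelium, and for Ccl2 0.509, with T and NK cells. Their adjusted permutation p were 0.368 and 0.225. The r of Spp1 with colon epithelium was 0.834 in Control, 0.289 in GF-AOM and −0.169 in GF-AOMS. With the fibroblast sum r was −0.085 for Spp1 and 0.137 for Ccl2, with adjusted permutation p of 0.871 and 0.846. With the summed distal markers Hoxa13, Hoxb13 and Hoxa11, r was −0.259, −0.350 and −0.107 for Spp1, Ccl2 and Il1b. The adjusted permutation p were 0.704, 0.301 and 0.809. By group, these r were −0.282, −0.585 and 0.480 in Control, 0.220, −0.153 and −0.487 in GF-AOM, and −0.702, −0.633 and −0.757 in GF-AOMS. From GF-AOM to GF-AOMS, 10 of 13 epithelium markers had positive and 9 of 11 fibroblast markers negative log2 differences. None passed in edgeR, as for all genes (0.0%). The part of these cell types in the differences of the 3 genes between groups was not tested.

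The other genes of the pathways were taken from 13 lists, which held 184 genes besides the 3, and 98 of these were in the table. From GF-AOM to GF-AOMS, 44 of the 98 had a positive log2 difference and 54 a negative one, with a median of −0.01, beside 0.01 over all genes. None passed edgeR's adjusted threshold, where none of all 10897 genes did (0.0%), and 4 of the 98 had an unadjusted p under 0.05, where 1.09% of all genes did. From Control to GF-AOMS, none of the 98 passed in edgeR, where 0.734% of all genes did, and 13 had an unadjusted p under 0.05, beside 16.2% of all genes. From Control to GF-AOM, none of the 98 passed and 17 had an unadjusted p under 0.05 in edgeR, beside 15.7% of all genes. DESeq2 called 1 of the 98 from Control to GF-AOMS, Cd14, a co-receptor of Toll-like receptor 4, with an edgeR log2 difference of 0.74 (SE 0.20), where it called 3.44% of all genes. It called none of the 98 from Control to GF-AOM, where it called 2.61% of all genes, or from GF-AOM to GF-AOMS, where it called 0.0276%. Without Control replicate 2, edgeR called 3 of the 98 from Control to GF-AOMS, Cd44, Il18 and Cd14, beside 4.52% of all genes. In the same fit it called 2 from Control to GF-AOM, Cx3cl1 and Nlrp6, beside 3.27% of all genes. With all 18 libraries, Cd44 was lower in GF-AOMS than in Control, at −0.68 (SE 0.21), and Il18 higher, at 0.82 (SE 0.43), as Cd14 was. Nlrp6 was lower in GF-AOM than in Control, at −0.75 (SE 0.26). Cx3cl1 lay at 26.5 to 45.3 CPM in GF-AOM and 32.3 to 75.2 in Control.

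None of the measured receptors of osteopontin was called from GF-AOM to GF-AOMS, where edgeR called none of all 10897 genes (0.0%). Of the 10 listed, CD44 and integrin subunits, 8 were measured and 7 had a negative log2 difference from GF-AOM, with a median of −0.10. Itgb6, the epithelial integrin subunit beta 6, was at 18.005 CPM in GF-AOM and 13.0 in GF-AOMS, a log2 difference of −0.47 (SE 0.21). Itgb3 differed by −0.30 (SE 0.24) and Itga9 by −0.14 (SE 0.20), and Cd44 by −0.06 (SE 0.21). Of the proteases and relatives of osteopontin only Mmp9, a matrix metalloproteinase that cuts it, was in the table, at 8.54 CPM in Control, 4.46 in GF-AOM and 7.29 in GF-AOMS. Its log2 difference from GF-AOM was 0.71 (SE 0.33), with 15.96 CPM in GF-AOMS replicate 2, and it did not pass. Other matricellular proteins, secreted like osteopontin into the matrix, had 2 positive and 6 negative differences of 8 measured, with a median of −0.11. The 3 farthest from 0 were Ccn3 at −0.58 (SE 0.34), periostin (Postn) at −0.35 (SE 0.28) and Ccn1 at 0.35 (SE 0.23).

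None of the other measured CC chemokines had a positive difference near that of Ccl2. Of 9 measured of 18 listed, 8 had a negative log2 difference from GF-AOM, with a median of −0.08. None passed, as for all genes in this contrast (0.0%). Ccl7, which also binds CCR2, starts 10141 bases from the start of Ccl2, and its log2 difference from GF-AOM was −0.06 (SE 0.59). Ccl11, the eosinophil attractant eotaxin, starts at 22252 bases and differed by −0.41 (SE 0.23). Ccl12, another CCR2 ligand, at 66274 bases differed by −0.08 (SE 0.50), and Ccl8 at 79614 bases by −0.13 (SE 0.65). Ccl7, Ccl12 and Ccl8 were all highest in GF-AOMS replicate 2, at 26.1, 13.0 and 383.5 CPM, and next in GF-AOM replicate 6, at 21.5, 8.76 and 257.7 CPM. These are the libraries with the highest Ccl2 of their groups. Outside these 2 libraries the groups overlapped for all 4 neighbours, whereas all 6 GF-AOMS libraries had Ccl2 above the GF-AOM mean. Elsewhere in the list Ccl28 differed by 0.26 (SE 0.20) and Ccl5 by −0.19 (SE 0.41). Ccr2, the receptor of CCL2, was not analysed here. Among 9 measured chemokine receptors, of 20 listed, 4 differences were positive and 5 negative, with Cx3cr1 at −0.62 (SE 0.24), Ccr10 at −0.50 (SE 0.45) and Ccr1 at −0.34 (SE 0.33).

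**Figure D4:**
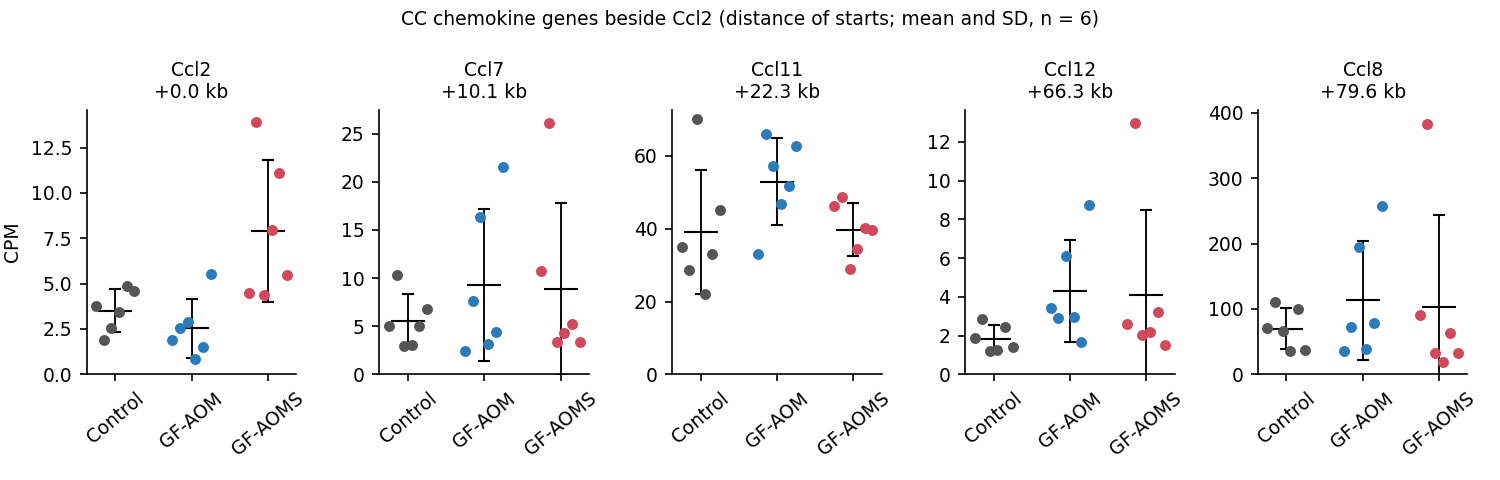
CPM (vertical axes, each with its own scale) of Ccl2 and the 4 CC chemokine genes measured downstream of it, by group, with mean and SD (whiskers that would pass below 0 are cut there) and the distance from the Ccl2 start above each panel. Only the Ccl2 panel has the higher mean in GF-AOMS than in GF-AOM, and for Ccl7, Ccl12 and Ccl8 the top points are GF-AOMS replicate 2 and GF-AOM replicate 6.

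Among 8 measured CXC and CX3C chemokines, of 16 listed, 3 differences from GF-AOM were positive and 5 negative. Cxcl10, an interferon-induced T cell attractant, had a log2 difference of 1.27 (SE 0.65) from GF-AOM, with means of 9.16, 5.63 and 13.6 CPM in Control, GF-AOM and GF-AOMS. That mean came largely from GF-AOMS replicate 5, at 51.7 CPM, while the other 5 libraries lay between 2.93 and 12.5 CPM. Cxcl9, induced by interferon gamma, followed the same library, at 109.3 CPM in replicate 5, with a log2 difference of 0.68 (SE 0.71). Cxcl12, a stromal chemokine, had a log2 difference of −0.44 (SE 0.19) and did not pass the edgeR test. Ccl2 in replicate 5 was second to replicate 2, so the library with most Cxcl10 was not the one with most Ccl2 in CPM, although it was in FPKM.

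Of the interleukin 1 family, 3 ligands or decoys of 10 listed were in the table and all 3 had positive log2 differences from GF-AOM. Il1rn, the receptor antagonist that blocks interleukin 1, was at 23.2 CPM in Control, 32.2 in GF-AOM and 38.5 in GF-AOMS, with a log2 difference from GF-AOM of 0.26 (SE 0.23). Il18, which caspase 1 also cuts, was at 15.2, 22.1 and 26.9 CPM in the same order, with a difference of 0.28 (SE 0.43), and Il18bp, its binding protein, differed by 0.09 (SE 0.39). These 3 differences were within 2 SE of 0. The signalling receptor Il1r1 differed by −0.23 (SE 0.22) and the inhibitory receptor Sigirr by 0.05 (SE 0.10). Il1a, Il1r2 and Il1rap were not analysed here.

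None of the measured genes that process or transmit interleukin 1 beta was called from GF-AOM to GF-AOMS, where edgeR called none of all 10897 genes (0.0%). Of 12 measured inflammasome genes, of 16 listed, 7 differences were positive and 5 negative, with a median log2 of 0.05. Nlrp6, a sensor of the gut epithelium, differed by 0.25 (SE 0.26), Nek7, a partner of NLRP3, by −0.15 (SE 0.11) and Naip5, a sensor of flagellin, by 0.12 (SE 0.10). Casp1, the enzyme that cuts the precursor, was at 89.2 CPM in GF-AOM and 88.5 in GF-AOMS. Nlrp3 was not analysed here. Among 17 measured genes of interleukin 1 signalling the median was −0.00, with 8 positive and 9 negative, and the 3 farthest from 0 were Peli2 at −0.17 (SE 0.18), Irak3 at −0.15 (SE 0.19) and Tab1 at 0.13 (SE 0.13). The adaptor Myd88 differed by −0.02 (SE 0.09).

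NF-kappaB and its inhibitors split evenly, with 6 positive and 6 negative of 12 measured. Nfkbiz, an inducible nuclear protein named with the inhibitor family, differed by 0.26 (SE 0.28) and Nfkb2 by −0.20 (SE 0.22). Nfkbia, a feedback inhibitor and target of the pathway, differed by −0.13 (SE 0.18). Of 7 measured Toll-like receptor genes 5 were positive, with Cd14 at 0.30 (SE 0.20), Tlr2 at 0.16 (SE 0.28) and Tlr4 at −0.14 (SE 0.16). Of 20 other inflammatory mediators only Csf1, the growth factor of macrophages, and Saa1, an acute-phase protein, were in the table, and they differed by 0.15 (SE 0.18) and 0.05 (SE 0.45). Tnf, Il6 and Ptgs2 were not analysed here.

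**Figure D5:**
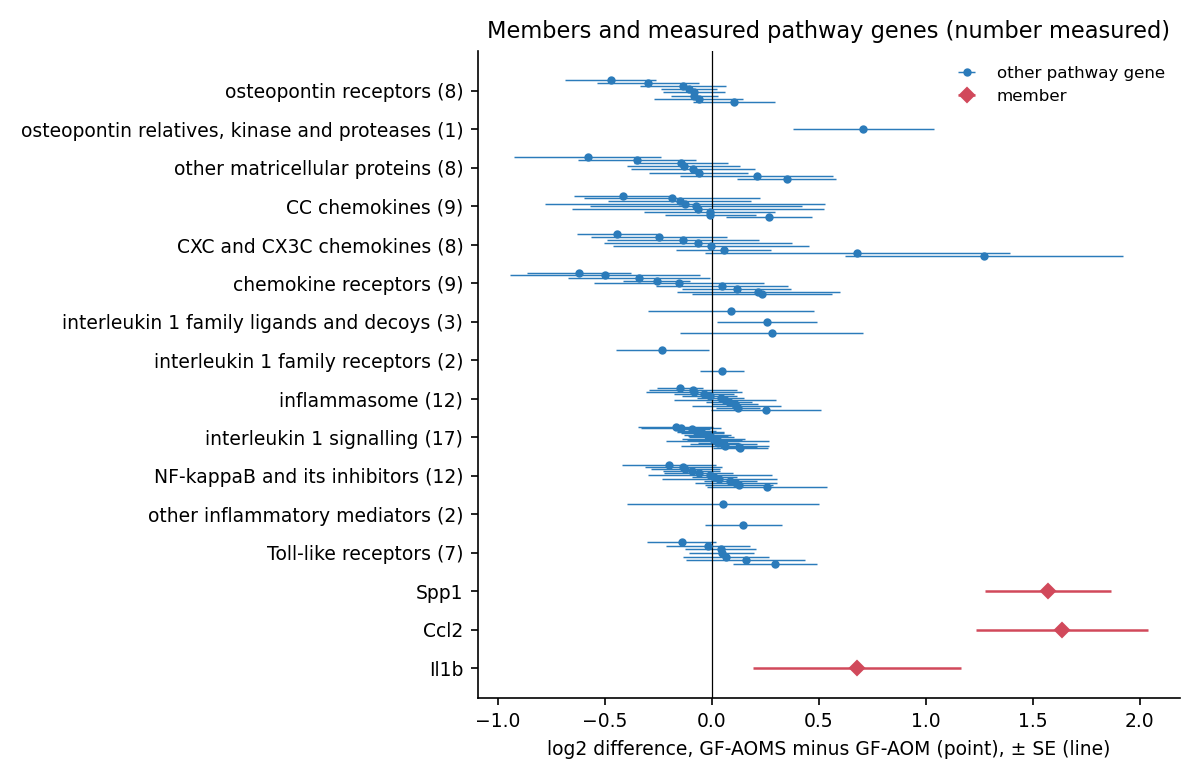
Log2 difference GF-AOMS minus GF-AOM (horizontal axis) with its SE for the 98 pathway genes by list and for Spp1, Ccl2 and Il1b, which were chosen for high values. The pathway genes spread to both sides of 0, with 44 positive and 54 negative, and Cxcl10 is the farthest to the right at 1.27.

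The genes whose log2 CPM was most like that of each of the 3 over all 18 libraries were ranked by Pearson's r, which contains the difference between groups and the scaling factor of each library. For Spp1 they were Rhox5 (r 0.865), Ccl2 (0.814), Uimc1 (0.810), Rfc3 (0.736) and Cnot10 (0.719). For Ccl2 they were Serpinf1 (0.858), Spp1 (0.814), Rhox5 (0.792), Dnph1 (0.758) and Gtf2h4 (0.754). For Il1b they were Adpgk (0.881), Hmox1 (0.871), S100a4 (0.823), Emp3 (0.821) and Itgb7 (0.821). Spp1 and Ccl2 were second in each other's list, while Il1b ranked 83rd for Spp1 (0.524) and 12th for Ccl2 (0.655). For Il1b, Spp1 ranked 860th and Ccl2 181st. Nothing is read from these ranks of the 3 genes, because they were chosen for high values in GF-AOMS.

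By deviations from the group means, which leave out the difference between groups, the genes most like Spp1 were Eif1ad (r 0.670), Akip1 (0.665), Ccl2 (0.662), Pole2 (0.641) and Mtfmt (0.632). Those most like Ccl2 were Tomm6 (0.770), Abhd11 (0.765), Aldh3b1 (0.756), Serpinf1 (0.756) and Psmb10 (0.753). Those most like Il1b were Adpgk (0.894), Bcl2l12 (0.862), Hmox1 (0.849), Ifitm3 (0.816) and Lcp2 (0.816). Rhox5 and Uimc1 were in the first list for Spp1 and not in this one, whereas Ccl2 was in both. The likeness was not mutual by this measure, since Spp1 ranked 25th for Ccl2, where Il1b ranked 9th. Il1b ranked 354th for Spp1, and for Il1b the ranks were 1822nd for Spp1 and 79th for Ccl2. For Il1b, Adpgk and Hmox1, the gene of the stress-induced enzyme heme oxygenase 1, were in both lists.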

How the data were processed

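RNA was measured in colorectal tissue by sequencing of strand-specific, rRNA-depleted libraries, with an RNA integrity number of at least 7 per the labels' protocols. The deposited table holds read counts per gene and, per the file headers, FPKM values (fragments per gene length and library size) for 18 libraries. FeatureCounts, DESeq2 and the build GRCm39 are named in the submitters' processing notes, while the aligner and the versions were not named there. The table's coordinates match GENCODE M21 on GRCm38, since 10890 identifiers were found and 93.14% had both ends within 100 bases. All genes reached an FPKM of 1 in 15 or more libraries, so weakly expressed genes were not analysed here. Total counts were 48953539 to 79233656 per library.

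Counts were fitted with edgeR 4.0.16 (quasi-likelihood, TMM normalisation, 1 model of the 3 groups, 15 residual degrees of freedom, R 4.3.3), and p-values were adjusted by Benjamini-Hochberg over 10897 genes at a threshold of 0.05. SE are those of the fitted log2 differences. Log2 CPM used a prior count of 2. Correlations of deviations used 100000 permutations within groups, or all 720 orders within 1 group. The tests within 1 group were not planned. All tests were two-sided. Alternatives were DESeq2 1.42.0, limma 3.58.1 on log2(FPKM + 1) and log2(FPKM + 0.1), other scalings, filters, the replicate block, the 2 compared groups alone, and leaving out each library. Limiting Control to 2 libraries was added after seeing the data.

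The 3 genes and all lists were chosen with earlier results of these data known. Named from each list are the 3 genes farthest from 0 from GF-AOM to GF-AOMS, and as most alike the 5 highest r, skipping clone names, pseudogenes and immunoglobulin segments. Cd44, Casp1, Myd88, the neighbours of Ccl2 and genes called under an alternative were added after their values were seen.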

Additional observations from a re-analysis of the deposited data

Results flagged for a closer look

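Among 45 groups of 6 libraries checked in CPM for 1 library far from the others, 10 were found, and 5 of the 10 were GF-AOMS replicate 2. The checks share libraries and scaling factors and were not made on log2 CPM, so no rate by chance is set beside the count. Il1b in that library, at 23.3 CPM, stood far above the other GF-AOMS libraries. In the same library the summed markers of macrophages and monocytes were at 2899 CPM, those of neutrophils at 81.4, those of T and NK cells at 195.0 and those of adipocytes at 166.5. In GF-AOM replicate 6, which had the highest Il1b and Ccl2 of its group, the macrophage and monocyte sum was 2732 CPM. The mast cell sum was 211.3 CPM in GF-AOM replicate 2, and the endothelium sum was 375.9 CPM in GF-AOM replicate 1. In Control, the T and NK cell sum was 184.1 CPM in replicate 5, and the adipocyte sum was 477.9 CPM in replicate 6.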

How the results depend on the processing

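Spp1, Ccl2 and Il1b were higher in GF-AOMS than in both other groups under every alternative run. From GF-AOM the log2 difference was 1.42 to 1.62, 1.28 to 1.70 and 0.42 to 0.69 in that order, and from Control 1.36 to 1.62, 0.81 to 1.49 and 0.67 to 1.36, besides the omissions of single libraries given above. Spp1 from Control to GF-AOM changed sign, to −0.061 with limma on log2(FPKM + 1), −0.056 on log2(FPKM + 0.1) and −0.14 with library totals, and ran from −0.15 to 0.14 without 1 library. DESeq2 called 1 pathway gene from Control to GF-AOMS. Without 1 library, 0 to 3 were called there and 0 to 2 from Control to GF-AOM. The correlation of Ccl2 with Il1b was 0.715 on log2(FPKM + 1), with an adjusted permutation p of 0.0443. Without 1 library it was 0.612 to 0.782, that of Spp1 with Ccl2 0.600 to 0.756 and that of Spp1 with Il1b 0.180 to 0.467. Over all genes from Control to GF-AOMS, edgeR called 80 (12 higher, 68 lower), 28 with library totals (9 higher, 19 lower), 0 with the 2 groups alone, DESeq2 375, limma 19 and 20, and 0 to 493 without 1 library. From Control to GF-AOM edgeR called 1 and DESeq2 284, and from GF-AOM to GF-AOMS edgeR called 0 and DESeq2 3. Same-numbered libraries correlated between −0.619 and 0.517, over 0.1 in 7 of 18 pairs, and 3 of 18 libraries correlated best with their own number, so the numbers were not taken to pair them. With the replicate block the differences from GF-AOM were 1.57, 1.70 and 0.59, those from Control 1.60, 1.14 and 1.06, no pathway gene was called, and 33 and 2 genes were called from Control to GF-AOMS and to GF-AOM. The filter of an FPKM of at least 5 in 6 libraries removed Ccl2 and Il1b, and no gene was removed by the main filter. The causes were not tested. Of the 3 genes, Ccl2 had the lowest count in any library, at 48 in GF-AOM replicate 4.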

Other observations

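The place of GF-AOMS replicate 2 among the smoke-exposed libraries depended on the scaling. Its raw Spp1 count of 1637 was below those of replicates 4 and 5, at 1851 and 1706, while its CPM of 46.4 was the highest of the 18 libraries. After scaling, its total was about 35280000 counts, beside 47480000 to 80240000 for the other 17. On the FPKM scale the highest Spp1 level was in replicate 4 and the highest Ccl2 level in replicate 5, whereas Il1b was highest in replicate 2 on both scales.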
